A study of Mus musculus with 4 samples.

Results

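Late-numbered miRNAs were taken as all array names that consist of mmu-miR- and a number of 1000 or more, with any letter or arm that follows. This rule found 107 of the 710 miRNAs on the array. It left out 1 starred name, miR-1982*, and kept miR-1982.1 and miR-1982.2. The members were compared with the other 603 miRNAs for the brightness of their spots, the spread between spots and the difference between genotypes. The arrays were run to find miRNAs whose amount depends on JUNB, which with a partner forms the transcription factor AP-1. The mouse embryonic fibroblasts (MEFs) comprised 2 Junb-/- clones, which lack Junb, and 2 wild type clones, with 1 single-colour Febit array per clone. All came from E9.5 embryos of a mixed C57BL/6 × 129/Sv background, were immortalized by serial passage (3T3 protocol), and were kept under 8% CO2 at 37 °C with 10% serum in the medium and no further agent. No source used here says which embryo each clone stems from, so the p-values measure the spread between these clones only.

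miRNAs are short RNAs cut from hairpin precursors by Drosha with its partner Dgcr8 and then by Dicer. Loaded onto an Argonaute protein, they pair with messenger RNAs mainly through the seed, bases 2 to 8 of the mature strand, and lower their translation and stability. Numbers were given in order of discovery, so that high numbers come mostly from deep sequencing of small RNAs, and some such entries have later been read as pieces of rRNA, tRNA or repeats. Letters after a number mark closely related sequences, and 5p and 3p mark the arms of a hairpin.

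Mature sequences were taken from RefSeq (GRCm38.p6) by name, and 48 of the 107 members matched (44.9%). They were 17 to 26 bases long, with a median of 22. The first set holds the bright members with a sequence and a pair of arms from 1 hairpin, with the seed in capitals. It is shown because base composition is set against brightness below.
miR-1895: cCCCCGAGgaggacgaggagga
miR-1187: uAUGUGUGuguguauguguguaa
miR-2137: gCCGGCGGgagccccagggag
miR-1894-5p: cUCUCCCCuaccaccugccucu
miR-1894-3p: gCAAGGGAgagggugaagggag
miR-1946b: gCCGGGCAgugguggcacaugcuuuu

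miR-1895 and miR-1894-3p consist largely of G and A, miR-1894-5p largely of C and U, and miR-1187 largely of U and G. The second set holds members that were lower in Junb-/- MEFs at an unadjusted p under 0.05 and have a sequence, again with the seed in capitals.
miR-1906: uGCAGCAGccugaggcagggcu
miR-1956: aGUCCAGGgcugagucagcgga

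The 48 matched members had 48 distinct seeds. None shared its seed with another matched member, and 4 shared it with an older miRNA on the array. The third set shows 2 of these beside the older miRNAs, because they start alike and then part.
miR-1961: uGAGGUAGuaguuagaa
let-7g-5p: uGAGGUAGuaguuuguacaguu
let-7i-5p: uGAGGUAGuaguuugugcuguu
miR-1928: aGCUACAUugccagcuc
miR-221-3p: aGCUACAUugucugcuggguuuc
miR-222-3p: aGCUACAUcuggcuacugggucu

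The intensities were summarised as levels. A level is the mean over up to 8 spots of quantile-normalized log2(intensity + 50), on which an intensity of 0 lies near 5.64 before normalization. Spots with a value numbered 5313 and 5361 on the Junb-/- arrays and 5167 and 5243 on the wild type arrays. The median spot intensity was 84 and 110.1 in Junb-/- clones 1 and 2, against 33.6 and 105.6 in wild type clones 1 and 2, and wild type clone 1 gave the dimmest array. Of the miRNAs used to check the cell type, all 10 fibroblast miRNAs were bright, with levels of 9.95 to 13.6. The 10 that mark other cells (among them miR-122 of hepatocytes and miR-124 of neurons) lay at 6.07 to 7.21.

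The 3 brightest miRNAs of all 710 were miR-2142, miR-1937a and miR-1937b, with mean levels of 14.44, 14.15 and 13.77. Below them the members thinned out, with 5 among the brightest 20, 7 among the brightest 71 and 20 among the brightest 178, where they made up 15.1% of all names. The dimmest 178 names held 31 of them (17.4%), near their share of all names. Their median level was 6.84 (quartiles 6.53 and 7.48), against 6.99 (6.56 and 8.06) for all other miRNAs. A brightness is the signal of a probe and depends also on how well that probe binds, so ranks order signals and not amounts of RNA.

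**Figure D1:**
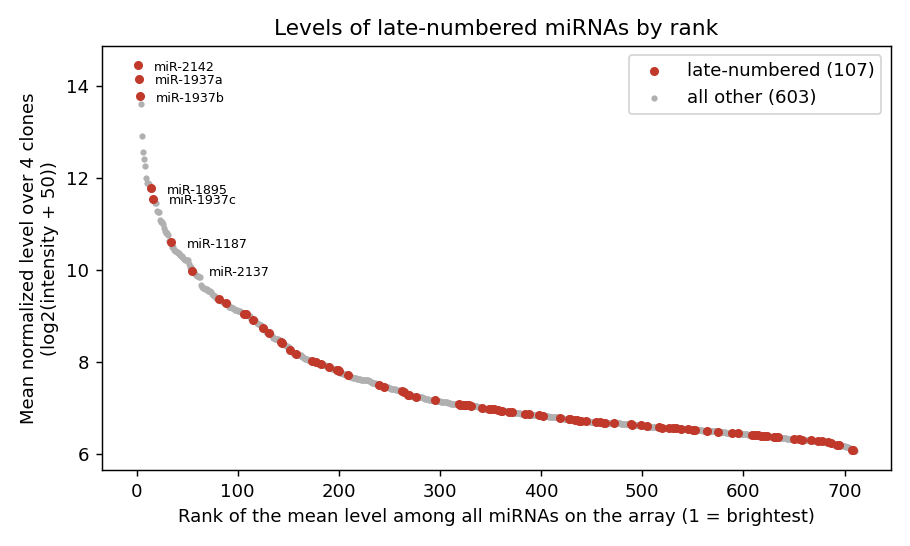
Mean level over the 4 clones (y axis, log2(intensity + 50), normalized) against its rank among all 710 miRNAs (x axis, 1 is the brightest), with the 107 late-numbered miRNAs in red and the other 603 in grey. Late-numbered names hold ranks 1 to 3 and otherwise spread down the whole curve, with 31 of them among the dimmest 178.

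In intensities, 24 members (22.4%) had a median spot under 50 in all 4 clones, against 122 (20.2%) of the other miRNAs. A median over 50 in all 4 clones was seen for 26 members (24.3%), against 186 (30.8%) of the others, and a median over 500 in all 4 for 7 members (6.54%), against 64 (10.6%). The number of members under 50 was 49 and 41 in Junb-/- clones 1 and 2, against 76 and 47 in wild type clones 1 and 2. The highest of these counts belonged to the dimmest array.

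miR-2142 had median spot intensities of 17825 and 39116 in Junb-/- clones 1 and 2, against 20178 and 21646 in wild type clones 1 and 2. Its levels were 14.49 ± 0.01 in Junb-/- MEFs and 14.40 ± 0.26 in wild type MEFs (SD, n = 2 each). Quantile normalization gives spots of the same rank nearly the same value on every array. The SD of 0.01 is therefore no measure of the spread of the Junb-/- intensities, which differed as given above. The genotypes overlapped, and the log2 fold change was 0.09 (95% interval -0.67 to 0.85, limma adjusted p = 0.96). By median spot it was the brightest miRNA on 3 arrays and ranked 3 on that of wild type clone 1.

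miR-1937a had 14332 and 15717 in Junb-/- clones, against 25178 and 17301 in wild type clones. miR-1937b had 10408 and 10838 in Junb-/- clones, against 20512 and 12613 in wild type clones, and miR-1937c had 2168 and 2635 in Junb-/- clones, against 4339 and 3554 in wild type clones. All 3 names of this letter family were dimmer in each Junb-/- clone than in each wild type clone by intensity. In normalized levels this held for miR-1937a and miR-1937c, while miR-1937b of Junb-/- clone 1 (13.87) lay between its wild type clones (14.09 and 13.77). The log2 fold changes were -0.32 (SE 0.36) for miR-1937a, -0.32 (SE 0.36) for miR-1937b and -0.60 (SE 0.37) for miR-1937c, with limma adjusted p-values of 0.84, 0.84 and 0.663. None passed the threshold. Over the other settings they ran from -0.85 to -0.14 for miR-1937a, -0.97 to -0.07 for miR-1937b and -1.08 to -0.30 for miR-1937c, again without a call. The largest of each came with the values normalized by the authors. Related sequences can bind each other's probes, and how far that was so here was not tested.

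miR-1895, whose gene Mir1895 lies within the span of Cxxc4 on chromosome 3, had intensities of 2921.5 and 2912 in Junb-/- clones, against 4320.2 and 4234 in wild type clones. Each of its 7 spots measured on all arrays was lower in Junb-/- MEFs, with differences of -1.03 to -0.42 on the normalized log2 scale, and the genotypes did not overlap. The log2 fold change was -0.75 (SE 0.37, 95% interval -1.54 to 0.05, limma adjusted p = 0.495). The 8 spots of a miRNA read the same RNA and are not replicates of a genotype. Strand was not compared in this and the other assignments to a gene's span.

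miR-1187, the dinucleotide-rich sequence shown above, had 1663 and 1682 in Junb-/- clones, against 999.8 and 1468 in wild type clones. It had a value at only 18 of its 32 spots over the 4 arrays. Junb-/- clones were above wild type clones without overlap, with a log2 fold change of 0.54 (SE 0.37, limma adjusted p = 0.737). miR-2137, the most GC-rich member at 85.7%, had 892 and 966.7 in Junb-/- clones, against 958.8 and 1115 in wild type clones. Its intensities overlapped between genotypes and its levels did not, with a log2 fold change of -0.47 (SE 0.35, limma adjusted p = 0.738).

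The arms of Mir1894, a gene within the span of Ppp1r10 (a regulatory subunit of protein phosphatase 1) on chromosome 17, were both measured. miR-1894-5p had 607.5 and 1047 in Junb-/- clones, against 364 and 801.6 in wild type clones. miR-1894-3p had 571.3 and 344.2 in Junb-/- clones, against 248 and 233.7 in wild type clones. The Junb-/- clones were the brighter ones for miR-1894-3p by intensity, while its levels overlapped. The log2 fold change was 0.54 (SE 0.36) for the 5p arm and 0.15 (SE 0.43) for the 3p arm, and both adjusted p-values were above 0.7 (0.734 and 0.941).

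The letter pair miR-1946a and miR-1946b differed more between clones than between genotypes. miR-1946a had 366.4 and 863 in Junb-/- clones, against 233.7 and 922 in wild type clones. miR-1946b had 294.4 and 940.5 in Junb-/- clones, against 353.1 and 780.2 in wild type clones. For both, clone 2 of each genotype was brighter than clone 1 and the genotypes overlapped. The log2 fold changes were -0.49 (SE 0.38) for miR-1946a and -0.24 (SE 0.39) for miR-1946b. The remaining members among the brightest 178 miRNAs, beside those described here, were miR-1939, miR-1907, miR-1892, miR-1190, miR-2145 and miR-1905, with mean levels of 8.00 to 8.74 and adjusted p-values of 0.738 to 0.973.

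**Figure D2:**
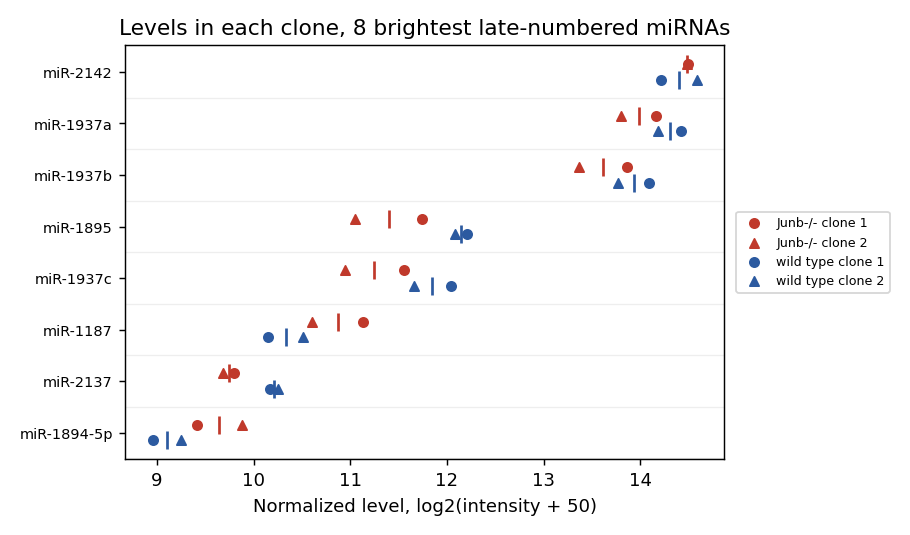
Normalized level (x axis, log2(intensity + 50)) of the 8 brightest late-numbered miRNAs in each clone, with Junb-/- clones in red above wild type clones in blue, circles for clone 1, triangles for clone 2 and a bar at each mean of 2. miR-1895, miR-1937a, miR-1937c and miR-2137 lie lower in both Junb-/- clones, while the points of miR-2142 lie close together and overlap. Quantile normalization gives spots of the same rank nearly the same value on every array, which draws the levels of the brightest names together.

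At the dim end, miR-1900 had 26.9 and 18.4 in Junb-/- clones, against 1.12 and 24 in wild type clones. miR-2183 had 4.6 and 32 in Junb-/- clones, against 0 and 14.8 in wild type clones. Both were at the bottom of the array (mean levels 6.08 and 6.10), with overlapping genotypes. miR-1933-5p, miR-1982.2 and miR-1897-3p followed with mean levels of 6.19 to 6.24, and no median spot of these 5 exceeded 42.4. The adjusted p-values of these 5 ran from 0.794 to 0.932.

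As a group, the members gave no call between genotypes, on an array where few miRNAs were called. With an adjusted p under 0.05 as the threshold, limma called 0 of 107 higher in Junb-/- MEFs, where 0.563% of all 710 miRNAs were called, and 0 of 107 lower, where 0.845% were called. At an unadjusted p under 0.05, 6 members were higher (5.61%, beside 5.35% of all miRNAs) and 3 were lower (2.80%, beside 5.07%). Other settings changed this tally, to 1 higher and 5 lower under scaling to the median, 1 and 3 with cyclic loess, 1 and 1 with the median over spots, and 10 and 4 with the replicate block. With quantile normalization the 9 were miR-2132, miR-1897-5p, miR-1224, miR-2140, miR-1197 and miR-2136 on the higher side and miR-1906, miR-1274a and miR-1956 on the lower side. Genotypes did not overlap with Junb-/- above for 22 members (20.6%, beside 21.3% of all) and with Junb-/- below for 19 (17.8%, beside 17.3%). The shares of members without overlap lie near those of the whole array.

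The median log2 fold change was 0.08 over the members and 0.04 over all miRNAs, with 58 positive and 49 negative values. The sizes were small, as the median absolute log2 fold change was 0.25 for members and 0.31 for the others. An absolute value over 1 was reached by 2 members (1.87%) and by 47 of the others (7.79%). The others ranged from -2.69 to 3.26 and the members from -1.35 to 1.43. All miRNAs were also divided into 4 bands of level of equal size. From 6.96 to 7.97 the median absolute value was 0.24 for 26 members and 0.44 for 151 others, whereas from 6.56 to 6.96 it was 0.34 for 30 members and 0.24 for 147 others. Below 6.56 it was 0.21 for both, and above 7.97 it was 0.41 for 20 members and 0.44 for 158 others.

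Taken array by array, the members' median level minus that of the others was -0.04 and -0.08 in Junb-/- clones, against -0.10 and -0.27 in wild type clones. The members were thus dimmer than the others on each array, with a difference of 0.12 between genotypes (exact permutation test, two-sided p = 0.333, the smallest that 2 against 2 allows). The share of the summed median spot intensities that came from members was 25.4% and 24.4% in Junb-/- clones, against 32.6% and 22.8% in wild type clones. It was highest in wild type clone 1 and lowest in wild type clone 2, and the genotypes did not separate (exact permutation test, two-sided p = 1). The 3 brightest names alone supplied 17.9% and 17.8% in Junb-/- clones, against 25.8% and 15.5% in wild type clones.

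**Figure D3:**
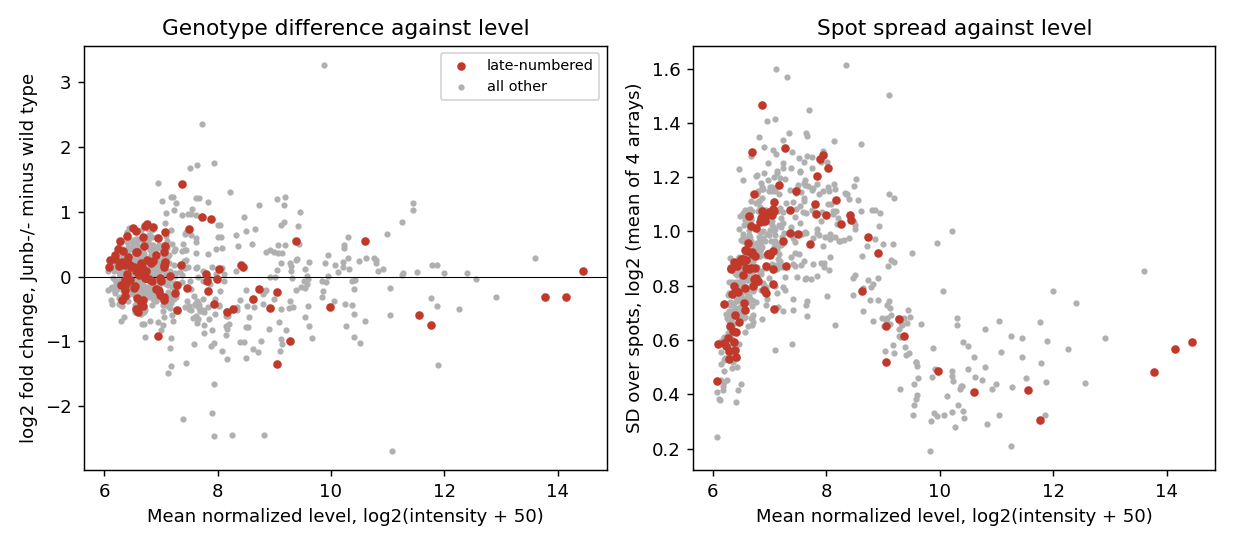
Left, log2 fold change (Junb-/- minus wild type, y axis) against the mean level (x axis, log2(intensity + 50)). Right, SD over the spots of a miRNA on the log2 scale (mean of 4 arrays, y axis) against the mean level, both for 107 late-numbered (red) and 603 other miRNAs (grey). The red points stay between -1.35 and 1.43 on the left, and on the right they follow the grey ones, with the largest spread at middle levels.

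The largest negative difference was that of miR-1906. RefSeq places 2 genes of it, Mir1906-1 within the span of Meg3 on chromosome 12 and Mir1906-2 on chromosome X, whose products cannot be told apart here. Its median intensities were 168 and 648 in Junb-/- clones, against 686 and 942 in wild type clones. Both Junb-/- clones were lower, and by levels the genotypes were 8.37 ± 0.66 and 9.72 ± 0.06 (SD, n = 2 each). All 7 spots measured on every array were lower in Junb-/- MEFs, with differences of -2.62 to -0.29. The log2 fold change was -1.35 (SE 0.39, 95% interval -2.18 to -0.51), with an unadjusted p of 0.00395 and an adjusted p of 0.149 by limma. With cyclic loess in place of quantile normalization it passed the threshold (-1.38, limma adjusted p = 0.0153). The size rested on Junb-/- clone 1, as it was -0.88 without that clone and -1.81 without Junb-/- clone 2.

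miR-1274a, whose human namesake has been traced to a lysine tRNA, had 243.4 and 867.3 in Junb-/- clones, against 986.9 and 899.6 in wild type clones. Junb-/- clone 1 stood well below the other 3 and the genotypes did not overlap. The log2 fold change was -0.99 (SE 0.40, 95% interval -1.84 to -0.14, limma adjusted p = 0.366), from 24 of 32 spots. miR-1956, whose gene lies within the span of Eif4e (the mRNA cap-binding protein) on chromosome 3, had 26.2 and 57.5 in Junb-/- clones, against 19.2 and 355.2 in wild type clones. By intensity only wild type clone 2 stood out, and by levels the genotypes separated, with a log2 fold change of -0.92 (SE 0.36, limma adjusted p = 0.326). miR-2133 had 266.8 and 381.1 in Junb-/- clones, against 172.2 and 331.6 in wild type clones, and its fold change of -0.55 (SE 0.36, limma adjusted p = 0.709) ran against the order of these medians.

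The largest positive difference was that of miR-2132, with 70.2 and 660.8 in Junb-/- clones, against 18.4 and 44.3 in wild type clones. Junb-/- clone 2 was far above the other 3, and Junb-/- clone 1 was next. The levels were 8.08 ± 0.94 in Junb-/- MEFs and 6.65 ± 0.12 in wild type MEFs (SD, n = 2 each). All 8 spots were higher in Junb-/- MEFs, by 0.52 to 2.32. The log2 fold change was 1.43 (SE 0.43, 95% interval 0.50 to 2.35, unadjusted p = 0.00515, limma adjusted p = 0.183). It depended on Junb-/- clone 2, since it was 0.76 without that clone and 2.09 without Junb-/- clone 1. It passed the threshold with cyclic loess (1.24, limma adjusted p = 0.0411) and when only miRNAs at or above the median level were fitted (limma adjusted p = 0.0478).

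miR-1897-5p had 360 and 195.5 in Junb-/- clones, against 96 and 68.8 in wild type clones. Both Junb-/- clones were above both wild type clones, with a log2 fold change of 0.92 (SE 0.41, 95% interval 0.05 to 1.79, limma adjusted p = 0.444). Its other arm, miR-1897-3p, was among the dimmest members and had 8.8 and 42.4 in Junb-/- clones, against 0 and 12.8 in wild type clones. miR-2140 had 175.6 and 66 in Junb-/- clones, against 2.4 and 42.9 in wild type clones, again with both Junb-/- clones above (log2 fold change 0.81, SE 0.36, limma adjusted p = 0.448). miR-2136, which differed by 0.75 (SE 0.35, limma adjusted p = 0.462), had 68.5 and 38 in Junb-/- clones, against 7.4 and 8 in wild type clones. On Junb-/- clone 2 a single spot of it read 1615.6, and with lone bright spots left out (over 1000 and over 20 times the median of their miRNA on the array) the difference was 0.51 (adjusted p = 0.757). All these wild type medians of miR-2140 and miR-2136 lay under the offset of 50.

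**Figure D4:**
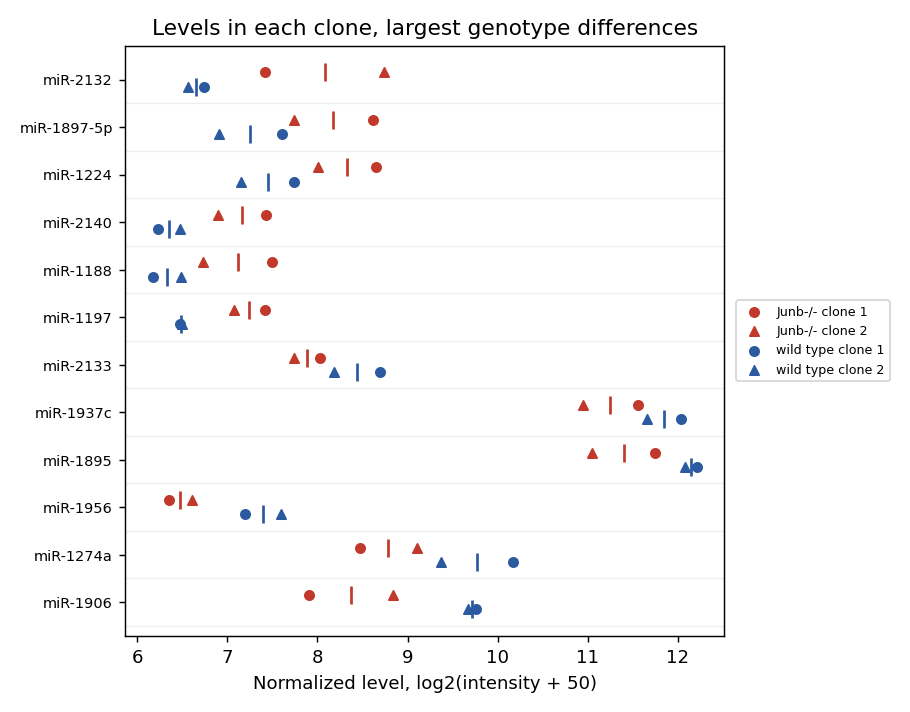
Normalized level (x axis, log2(intensity + 50)) in each clone for the 6 late-numbered miRNAs with the largest positive and the 6 with the largest negative difference, with Junb-/- clones in red above wild type clones in blue, circles for clone 1, triangles for clone 2 and a bar at each mean of 2. The Junb-/- clones lie furthest apart for miR-2132 (SD 0.94), miR-1906 (SD 0.66) and miR-1897-5p (SD 0.62), and none of the 12 had an adjusted p under 0.05.

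The Dlk1-Dio3 domain of chromosome 12 is an imprinted region whose maternal noncoding RNAs, Meg3 and Rian among them, carry many miRNAs. Of its late-numbered members on the array, miR-1188, miR-1193, miR-1197 and miR-1906, none passed the test. miR-1188, whose gene lies within the span of Rian, had 171.7 and 62 in Junb-/- clones, against 8 and 38.9 in wild type clones. Both Junb-/- clones were above both wild type clones, opposite to miR-1906, with a log2 fold change of 0.79 (SE 0.38, limma adjusted p = 0.472). miR-1193 had 32 and 22 in Junb-/- clones, against 13.4 and 1 in wild type clones, and its levels overlapped (log2 fold change 0.16, SE 0.38).

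miR-1197 showed a positive log2 fold change of 0.76 (SE 0.35, limma adjusted p = 0.462) although its medians were 39.2 and 50.4 in Junb-/- clones, against 17.6 and 56.2 in wild type clones. On each Junb-/- array 1 spot was far brighter than the rest, at 9004 in clone 1 and 4811.4 in clone 2, while the highest wild type spots were 62 and 236. The bright spot of clone 1 stood in the file between a spot of miR-200a* at 6966.5 (median of its spots 30.5) and a spot of let-7b at 14234 (median 718). That of clone 2 stood between a spot of miR-666-3p at 10278 (median 634.1) and a spot of miR-2139 at 492 (median 279.7). With such lone spots left out, the fold change of miR-1197 was -0.02 (limma adjusted p = 0.982), and with the median over spots it was 0.04 (adjusted p = 0.988). The setting that left out lone spots was chosen after seeing the data. It found 17 and 14 such spots on the Junb-/- arrays, against 7 and 5 on the wild type arrays, and among members 4 and 2, against 0 and 0.

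miR-1961, which begins like the let-7 miRNAs, had medians of 16 and 42.8 in Junb-/- clones, against 8 and 7 in wild type clones. Its mean level was 6.69, where the let-7 miRNAs that share its seed had 8.85 to 10.84 and miR-98 had 6.88. It shares its first 13 bases with let-7g-5p and let-7i-5p. On Junb-/- clone 1 a single spot read 3818 and stood between a spot of miR-880 at 370.4 and a spot of miR-341 at 5980.4. The log2 fold change was 0.60 (SE 0.37, limma adjusted p = 0.65) with all spots and 0.17 (adjusted p = 0.933) without lone spots. The other lone spots of members were those of miR-2136, with neighbours at 1030 and 191.2, miR-1958 (1436, with a neighbour at 420.5 and another without a value) and miR-1969 (1183, with neighbours at 56 and 134.4). For these 3, every neighbour with a value was dimmer than the spot itself. The part of neighbouring spots in these values was not tested.

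miR-1928, which shares its first 10 bases with miR-221-3p, had 26.4 and 105.6 in Junb-/- clones, against 25.6 and 98 in wild type clones. miR-221 itself had 93.9 and 333.2 in Junb-/- clones, against 64.2 and 422.8 in wild type clones. By intensity, clone 2 of each genotype was the brighter one in both, and the genotypes overlapped. By level, miR-1928 was slightly lower in wild type clone 2 (6.55) than in wild type clone 1 (6.64). miR-1192, which shares its seed with miR-495-3p, had a mean level of 7.50, and miR-495 had 6.55. miR-1983, which shares its seed with miR-412-3p, had 6.98, and miR-412 had 7.39.

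miR-1224 is a mirtron, a miRNA cut from a whole spliced intron without Drosha, here of Vwa5b2 on chromosome 16. It had 387.2 and 380 in Junb-/- clones, against 117 and 95.2 in wild type clones. Both Junb-/- clones were above both wild type clones, though 2 of 7 complete spots ran the other way, with a log2 fold change of 0.88 (SE 0.38, 95% interval 0.06 to 1.70, limma adjusted p = 0.439). miR-1306, whose hairpin lies in the gene of the Drosha partner Dgcr8, had 250.9 and 118.8 in Junb-/- clones, against 67.2 and 25.6 in wild type clones. By levels its genotypes overlapped, with a log2 fold change of 0.68 (SE 0.43, limma adjusted p = 0.678).

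The spread between the spots of a miRNA, taken as the SD of log2(intensity + 50) on an array and averaged over arrays, was like that of the rest of the array. Its median was 0.87 for the members (0.30 to 1.47) and 0.87 for the others (0.19 to 1.61). From the dimmest to the brightest of the 4 bands of level it was 0.73, 0.91, 1.06 and 0.66 for members, against 0.71, 0.93, 1.04 and 0.68 for the others. Spread on this scale was therefore low at both ends, and the offset of 50 narrows the spread of dim spots. With an offset of 16 the median over all levels was 1.27 for the members and 1.24 for the others. With the offset of 50 the smallest values belonged to miR-1895 (0.30), miR-1187 (0.41) and miR-1937c (0.41), which were bright. The dimmest member, miR-1900 (0.45), came next, with its medians under that offset in all clones. The largest values belonged to miR-1197 (1.47), miR-2182 (1.31), miR-1961 (1.29) and miR-1196 (1.28).

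For miR-1197 the spread was largest on the 2 arrays with the bright spots described above, and for miR-1961 on that of Junb-/- clone 1. The spot SD of miR-1197 was 2.47 and 2.08 on the Junb-/- arrays, against 0.45 and 0.87 on the wild type arrays, and that of miR-1961 was 2.31 and 1.17, against 0.49 and 1.19. miR-1961 thus had a spread above the median of 0.87 on 1 wild type array as well. That of miR-2182 and miR-1196 was above it on all arrays of both genotypes. It was 1.22 and 1.70 on the Junb-/- arrays, against 0.96 and 1.34 on the wild type arrays, for miR-2182, and 1.22 and 1.52, against 0.92 and 1.47, for miR-1196. miR-2182 had medians of 17.6 and 251.2 in Junb-/- clones, against 54 and 138.4 in wild type clones, with overlapping genotypes. Spots without a value made up 8.09% of the members' spots and 7.04% of the others', and spots at exactly 0 made up 5.62% of the members' measured spots and 4.54% of the others'.

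How well the clones ordered the members also depended on level. Across the 107 members, Spearman's rank correlation of levels was 0.74 between the Junb-/- clones and 0.74 between the wild type clones, and 0.67 to 0.80 over all 6 pairs of clones. Among the 46 members in the brighter part of the array, divided at the median level, it was 0.64 to 0.84. Among the 61 in the dimmer part it was -0.04 to 0.35, so the order of dim members hardly carried over from clone to clone. That part of the array spans levels of only 6.07 to 6.96, and a narrow range lowers such a correlation. For the other 603 miRNAs it was 0.73 to 0.82 over all levels, and they were not divided by level. These correlations run across miRNAs of the same arrays, which are not independent replicates.

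By number, the log2 fold changes of the 16 members under 1500 had a median of 0.25, and their median level was 6.86. The 74 from 1500 up to 2000 had medians of -0.03 and 6.74, and the 17 numbered above 2000 had 0.12 and 6.98. No block held a member past the adjusted threshold. Missing spots made up 13.7%, 6.42% and 10.1% of these blocks in the same order, and the median spot spread was 0.88, 0.86 and 1.04.

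The GC content of the 48 matched members had a median of 55.5% (27.3% to 85.7%), against 50% for the 150 other miRNAs that matched. Only 24.9% of the 603 others matched, because a match needed the same name. That left out let-7a and other names that RefSeq lists with an arm. Comparisons with the others cover the matched names only. The 10 matched members among the brightest 178 miRNAs had a median of 63.6% and the other 38 had 54.4%. For the other miRNAs the same medians were 52.4% (n = 27) and 50% (n = 123). Across miRNAs, GC content and level had a rank correlation of 0.37 for the members and 0.19 for the others. miR-1187, at 34.8%, was bright with a low GC content, and miR-1900, at 68.2%, was the dimmest member. No sequence was matched for miR-2142, miR-1937a, miR-1937b and miR-1937c, so the relation leaves out the 3 brightest names.

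**Figure D5:**
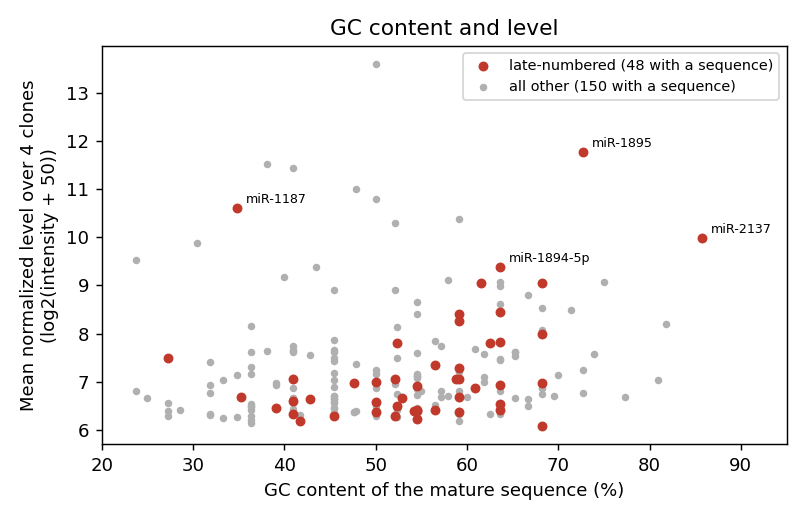
Mean level over the 4 clones (y axis, log2(intensity + 50), normalized) against the GC content of the mature RefSeq sequence (x axis, %), for 48 late-numbered (red) and 150 other miRNAs (grey). The 10 matched members among the brightest 178 miRNAs have a median GC content of 63.6%, with miR-1187 at 34.8% far to the left of the others that are named.

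Of the 107 names, 79 had a gene in the RefSeq table and 63 of these lay within the span of another gene. The 28 names with no entry had a median level of 7.05 and included 8 of the 20 members among the brightest 178. The 48 with a matched sequence had a median level of 6.92, and the 31 with a gene but no mature sequence of the same name had 6.72.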

How the data were processed

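Per the labels, RNA bound to the array was extended with biotinylated nucleotides and stained with streptavidin-phycoerythrin. The authors deposited 1 linear intensity per spot for each clone, 8 spots per miRNA, with no background or flag column. They also deposited 1 normalized value per miRNA on a log2 scale, used only as an alternative. The sources used here do not give how background was removed or how these values were normalized. The number of arrays limits the precision.

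Here an offset of 50 was added to the intensities, since no background value allowed a normexp correction. After log2, the spots of the 4 arrays were quantile-normalized and averaged per miRNA, and spots without a value were left out. The test was limma 3.58.1 in R 4.3.3 (lmFit, then eBayes), run on all 710 miRNAs as Junb-/- minus wild type, two-sided, with Benjamini-Hochberg adjustment over all 710 and a threshold of 0.05. The fit had 2 residual and 11.8 prior degrees of freedom. The prior degrees of freedom were 721 with cyclic loess and infinite with only miRNAs at or above the median level. In those fits a miRNA's own spread between clones counted for little or nothing. Fold changes are on the log2(intensity + 50) scale, which understates those of dim miRNAs. Intervals are at 95%. The steps were tested on simulated data.

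Members and lists were chosen with earlier results of these data known. The text names the 6 members with the largest positive and the 6 with the largest negative difference, the 8 brightest and 5 dimmest, the 4 with the largest and the 4 with the smallest spot spread, 3 groups of arms or letters, and members of the Dlk1-Dio3, Dgcr8 and mirtron lists. miR-2136, the seed partners and 6 further bright members were named after their values were seen. Alternatives changed the offset, the normalization, the summary over spots, the filter, limma's settings, the replicate block and the clones used. Python 3.11.15 and matplotlib 3.10.9 were used for the plots.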

Additional observations from a re-analysis of the deposited data

How the results depend on the processing

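The count of late-numbered miRNAs called stayed at 0 in each direction in most settings that kept all 4 clones. Cyclic loess called 1 higher (miR-2132) and 1 lower (miR-1906). Fitting only miRNAs at or above the median level called 1 higher (miR-2132). Over all 710 miRNAs, 4 were called higher and 6 lower. These counts were 0 and 0 with no offset, with no normalization and with the median over spots, 1 and 3 with values under 16 set to 16, and 2 and 2 with the values normalized by the authors. They were 2 higher under scaling to the 75th percentile, 10 lower under scaling to the median, 10 and 19 with cyclic loess, and 8 higher with limma's trend and robust settings. Without single clones they ran from 0 to 5 higher and 0 to 7 lower. The study speaks of clone pairs, but no source used here says what a shared clone number stands for. The deviations of same-numbered clones correlated at 0.31 over all miRNAs. A fit with the replicate block called 0 members, with 10 higher and 4 lower at an unadjusted p under 0.05, and 6 higher and 10 lower over all miRNAs, with miR-1906 at an adjusted p of 0.0519.

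The members' median log2 fold change of 0.08 became -0.15 under scaling to the 75th percentile and -0.08 under scaling to the median, which moved the median of all miRNAs to -0.20 and -0.13. It was 0.28 with no normalization, where the median of all was 0.23, and -0.10 with only miRNAs at or above the median level. Without single clones it ran from -0.02 to 0.11. The members' median level minus that of the others was -0.26 with no offset, -0.24 with values under 16 set to 16, and -0.25 both with the authors' values and with only miRNAs at or above the median level. The median spot spread was 1.89 with no offset, 1.27 with an offset of 16, 0.68 as a median absolute deviation, and 0.85 to 0.93 without single clones.

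Some differences changed sign, of which miR-2133 (-0.55) and miR-1197 (0.76) were among the larger ones. Under scaling to the 75th percentile these were miR-2142 (-0.42), miR-1900 (-0.27), miR-2183 (-0.13), miR-1982.2 (-0.05), miR-1894-3p (-0.03) and miR-1193 (-0.07), and under scaling to the median miR-2142 (-0.35), miR-1900 (-0.21) and miR-2183 (-0.06). With no normalization they were miR-2182 (0.16) and miR-1946b (0.08), and with the authors' values miR-2133 (0.04), miR-2142 (-0.03) and miR-1933-5p (-0.09). Without single clones the values ran from -0.49 to 0.24 for miR-2182, -0.87 to 0.02 for miR-1196, -0.35 to 0.65 for miR-1894-3p and -0.70 to 0.22 for miR-1946b. They ran from -0.09 to 0.27 for miR-2142, -0.06 to 0.36 for miR-1900 and -0.24 to 0.56 for miR-1193. Without lone bright spots, a setting chosen after seeing the data, miR-1197 was -0.02. Where the setting's construction does not show the cause, the cause was not tested. For the 24 members with medians under the offset of 50 in all 4 clones, dim signal limits any comparison.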
